A study of Rattus norvegicus with 14 samples.

Results

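Late and early phenylephrine (PE) were compared in vehicle-treated neonatal rat ventricular myocytes (NRVM), the cultured heart muscle cells used as a model of hypertrophic growth. The comparison used 5 of the 14 arrays of the series and all 13184 genes with a symbol, each read on its brightest probe set: 3 arrays after 48 h of PE in DMSO, against 2 arrays after 6 h of PE in DMSO. The cells came from 2-day-old Sprague-Dawley pups, with no genetic change named in the labels, were pre-plated to remove non-myocytes and were then held in serum-free medium. PE was given at 100 µM, and both groups also received DMSO, the vehicle of the BET bromodomain inhibitor JQ1. Which of vehicle and PE was added first is not settled, because the treatment protocol gives a 6 h head start to the vehicle and the design text gives PE before it. Of the other groups, 3 arrays of DMSO for 90 min without PE are given as a starting level, and JQ1 with PE at 48 h and at 6 h (3 arrays each; its concentration is not given in the sources used here) is used for 1 comparison of time changes. No array without PE at 6 h or 48 h was used here, so a longer PE exposure and a longer time in serum-free culture cannot be told apart.

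PE activates alpha1-adrenergic receptors, which signal through Gq, phospholipase C, calcium and protein kinase C to the MAP kinases. In myocytes this first induces immediate early transcription factors and their feedback inhibitors, and later an enlarged, protein-rich cell with fetal gene expression. Cardiomyocytes of newborn rats are leaving the cell cycle, and the genes of DNA replication and mitosis are normally silenced in the heart soon after birth.

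Within a group the correlation between arrays was 0.9976 or more, and array medians ran from 7.365 to 7.404 at 48 h, against 7.365 and 7.43 at 6 h. As a check of RNA integrity, the Gapdh control's 3' minus 5' signal was between -0.101 and -0.026 at 48 h, against -0.072 and -0.063 at 6 h. That of the hexokinase control was between 1.277 and 1.457 at 48 h, against 1.148 and 1.302 at 6 h. Values are deposited log2 expression values, levels are given on that scale, and a difference of 1 is a 2-fold change. A group mean below 6.23, the 30th percentile of genes, is called dim. The cells carried heart muscle markers at high levels: the summed level of 14 markers was 17.68 to 17.69 at 48 h, against 17.57 to 17.58 at 6 h. In these bulk samples fewer cells of a type and less RNA per cell cannot be told apart.

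Between 6 h and 48 h, 4565 genes (34.6%) passed an adjusted p of 0.05 in the limma fit, 2144 of them raised (16.3%) and 2421 lowered (18.4%). Most changes were small, with a median size of 0.286 among genes that passed and a median of -0.011 over all genes. At least 2-fold, 123 genes were raised (0.933%) and 59 lowered (0.448%). The largest changes were falls: 7 genes were lowered at least 4-fold and 0 were raised as much. Of the genes that passed, 2142 raised and 2414 lowered ones had no overlap between the 3 late and the 2 early arrays. Over all genes, 25.4% lay wholly above and 28.4% wholly below. Nearly every gene that passed thus had separate arrays, and a lack of overlap given for such a gene adds little to its call. Among the changes of at least 2-fold, 19 raised genes were dim at 6 h and 11 lowered genes were dim at 48 h, and the size of such changes is uncertain. Where another probe set of a gene described here changed in the opposite direction or by under 50% as much, its change is given beside the gene. Whether a group's arrays stand for separate cultures is not stated in the labels, and the p-values reflect array-to-array spread that may be technical.

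**Figure D1:**
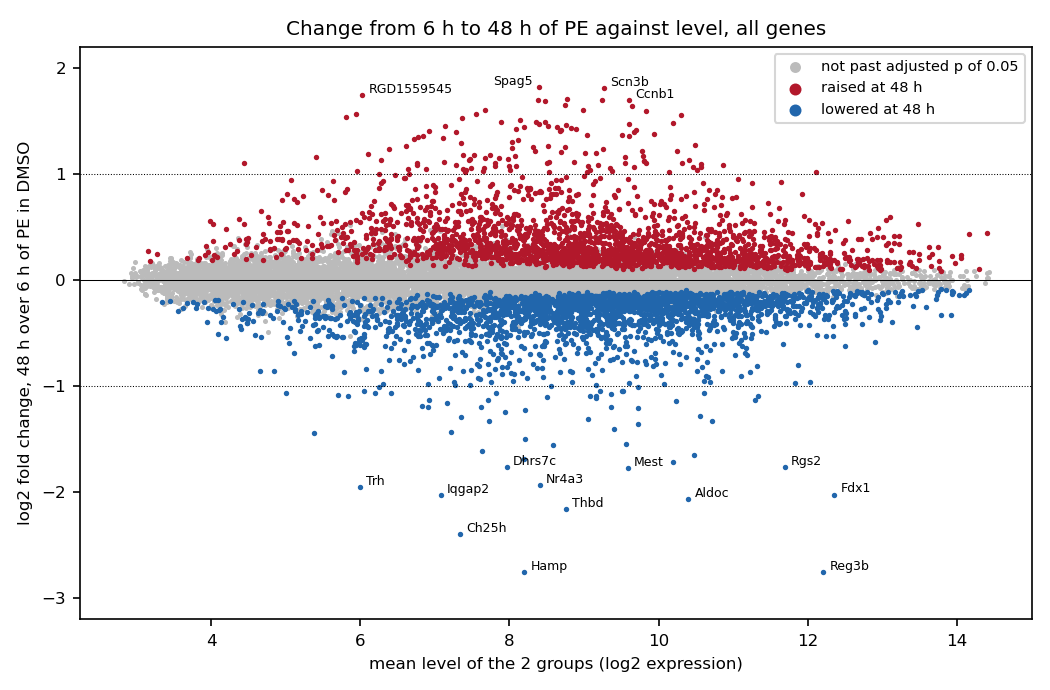
Log2 fold change, 48 h over 6 h of PE in DMSO, against the mean level of both groups, with 1 point for each of 13184 genes; red and blue points passed an adjusted p of 0.05 (2144 raised, 2421 lowered) and dotted lines mark 2-fold. The largest falls, Reg3b and Hamp, reach -2.76 and -2.75, and the largest rise, Spag5, 1.82.

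What built between 6 h and 48 h was above all the machinery of cell division. In 6 lists of division genes, 134 of 140 measured genes (95.7%, against 16.3% of all genes) rose, 0 fell and the median change was 0.81, with 56 raised at least 2-fold. These lists supplied 10 of the 20 most raised genes of the array. The remaining 6 genes lay between -0.01 and 0.18 and did not pass. At 6 h, 16 of the 140 were dim.

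Of the mitotic kinases and cyclins, 28 of 28 rose and 0 fell (median 1.12). Ccnb1, cyclin B1, the partner that activates Cdk1 at the entry into mitosis, had levels of 10.43, 10.49 and 10.43 at 48 h, against 8.70 and 8.80 at 6 h. The late arrays lay well above the early ones, a 3.25-fold rise (1.70 ± 0.066, log2 fold change ± standard error (SE) with 3 and 2 arrays; adjusted p = 4.73e-09). The second cyclin B gene, Ccnb2, had 10.37, 10.37 and 10.37 at 48 h, against 8.97 and 8.97 at 6 h (1.40 ± 0.052). Cdca8, the borealin subunit of the chromosomal passenger complex with Aurora B, had 9.46, 9.32 and 9.36 at 48 h, against 7.97 and 7.98 at 6 h (1.40 ± 0.045). Neither gene's groups overlapped, as was true of nearly every gene that passed. The mitotic kinase gene Pbk changed by 1.46 ± 0.062 and Cks2, a small Cdk-binding protein, by 1.10 ± 0.049.

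Spindle motors and cytokinesis genes rose together: 22 of 22 rose and 0 fell (median 1.27). Spag5, or astrin, a spindle protein, stood at 9.35, 9.41 and 9.18 at 48 h, against 7.48 and 7.50 at 6 h, a 3.54-fold rise (1.82 ± 0.10, adjusted p = 5.76e-08). This was the largest rise of the comparison. Kif20a, a mitotic kinesin of the central spindle, stood at 10.07, 10.19 and 9.98 at 48 h, against 8.40 and 8.37 at 6 h (1.70 ± 0.054). Prc1, which bundles the microtubules of that spindle, stood at 11.12, 11.18 and 11.09 at 48 h, against 9.86 and 9.85 at 6 h (1.28 ± 0.044). Ect2, an exchange factor that starts the contractile ring of cytokinesis, had 10.59, 10.69 and 10.61 at 48 h, against 8.97 and 9.10 at 6 h (1.59 ± 0.062), and Racgap1, which activates it, changed by 1.37 ± 0.042. In Spag5, Kif20a, Prc1 and Ect2 every late array exceeded both early ones by more than 1.

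At the kinetochore, where chromosomes attach to the spindle, 22 of 23 rose and 0 fell (median 0.97). Spc25, of the Ndc80 complex that binds microtubules, had 9.76, 9.73 and 9.70 at 48 h, against 8.34 and 8.37 at 6 h (1.37 ± 0.045, adjusted p = 1.13e-09). Nuf2, of the same complex, changed by 0.97 ± 0.047, and the centromere genes Cenpk and Cenpw by 1.10 ± 0.048 and 1.51 ± 0.095. Hjurp and Mis18a, which load the centromeric histone, changed by 1.08 ± 0.042 and 1.08 ± 0.044. Knstrn, another kinetochore protein, and Kif2c, a kinesin that takes microtubules apart at the centromere, rose by 1.61 ± 0.070 and 1.49 ± 0.076.

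Of DNA replication genes, 31 of 32 rose and 0 fell (median 0.57). Mcm6, a subunit of the replicative helicase, had 9.90, 9.90 and 9.85 at 48 h, against 9.05 and 9.0 at 6 h (0.85 ± 0.037, adjusted p = 9.12e-09). Gmnn, geminin, which blocks a second round of origin licensing, had 9.63, 9.62 and 9.61 at 48 h, against 8.69 and 8.68 at 6 h (0.93 ± 0.054; another probe set at -0.04), and Cdt1, the licensing factor that geminin binds, had 8.97, 9.01 and 8.99 at 48 h, against 8.15 and 8.21 at 6 h (0.81 ± 0.061). The groups of all 3 genes were apart by more than 0.7. Rrm1, the large subunit of ribonucleotide reductase, and the primase gene Prim1 changed by 0.77 ± 0.043 and 0.72 ± 0.048. Of chromosome condensation and chromatin assembly genes, 17 of 19 rose and 0 fell. They included Top2a, the topoisomerase that untangles sister chromatids, at 1.65 ± 0.067, the condensin gene Ncaph at 1.20 ± 0.072 and the proliferation marker Mki67 at 1.08 ± 0.068. Of homologous recombination and replication stress genes, 14 of 16 rose and 0 fell, with Mms22l at 1.44 ± 0.091 and Fancd2 at 1.09 ± 0.069. Ube2t, the ubiquitin-conjugating enzyme of the Fanconi pathway, had 9.23, 9.22 and 9.23 at 48 h, against 7.47 and 7.59 at 6 h, a 3.25-fold rise (1.70 ± 0.072).

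Promoters of the division genes are shown because their lists moved together and because they carry different short motifs. The windows are from RefSeq (GRCr8) and run 5' to 3' on the gene's strand, with the motifs named in capitals. A promoter here is a 300-base window over the gene's start, and 10893 of the 13184 genes had one. The first set is the 5 genes with the smallest adjusted p among mitotic kinase, spindle and kinetochore genes whose promoter holds both the CHR (TTTGAA or its complement TTCAAA), the element through which the DREAM and MMB complexes time late cell cycle genes, and a CCAAT box (CCAAT or ATTGG), which binds NF-Y. In Cdca8 the CHR overlaps an ATTGG.

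Cdca8: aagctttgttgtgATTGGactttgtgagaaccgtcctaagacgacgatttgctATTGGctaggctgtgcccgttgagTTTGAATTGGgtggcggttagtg
Spc25: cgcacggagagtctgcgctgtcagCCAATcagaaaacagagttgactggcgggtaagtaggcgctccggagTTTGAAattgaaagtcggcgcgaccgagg
Prc1: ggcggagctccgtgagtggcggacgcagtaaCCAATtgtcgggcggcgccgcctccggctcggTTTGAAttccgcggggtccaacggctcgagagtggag
Ccnb2: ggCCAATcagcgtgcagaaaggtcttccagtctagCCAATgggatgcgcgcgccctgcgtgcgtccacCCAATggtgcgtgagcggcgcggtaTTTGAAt
Ect2: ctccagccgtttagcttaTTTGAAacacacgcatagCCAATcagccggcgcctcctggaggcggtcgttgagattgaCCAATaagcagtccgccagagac

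These lie at chr5:142483271-142483370 on the minus strand (Cdca8), chr3:74396747-74396846 on the minus strand (Spc25), chr1:143659400-143659499 on the plus strand (Prc1), chr8:79981695-79981794 on the minus strand (Ccnb2) and chr2:111966700-111966799 on the minus strand (Ect2). The CHR was found in 17 of 21 spindle and cytokinesis promoters (81.0%), 14 of 22 of mitotic kinases and cyclins (63.6%) and 9 of 21 of the kinetochore list (42.9%). It was found in 2 of 28 DNA replication promoters (7.14%), against 12.1% of promoters of all measured genes and 18.1% of the 27457 promoters of the table. The CCAAT box was in 76.2%, 68.2% and 42.9% of the 3 mitotic lists and in 57.1% of DNA replication promoters, against 37.4% of promoters of measured genes and 37.7% of the table. An E2F motif, searched on both strands as TTTGGCGC, TTTCCCGC, TTTCGCGC or TTTGCCGC, was in 14 of 28 DNA replication promoters (50%) and in at most 4.76% of the 3 mitotic lists, against 3.68% of measured genes and 2.25% of the table. The 3 DNA replication genes with the smallest adjusted p that hold it follow.

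Mcm6: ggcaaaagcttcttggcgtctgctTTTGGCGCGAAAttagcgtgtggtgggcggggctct
Gmnn: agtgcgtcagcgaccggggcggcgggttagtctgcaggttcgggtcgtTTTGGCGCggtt
Cdt1: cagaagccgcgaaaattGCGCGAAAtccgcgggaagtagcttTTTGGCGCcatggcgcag

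They lie at chr13:42404456-42404515 on the minus strand (Mcm6), chr17:40729824-40729883 on the plus strand (Gmnn) and chr19:67529239-67529298 on the plus strand (Cdt1), and the capitals of Mcm6 are 2 overlapping matches on opposite strands. GCGCGAAA in Cdt1 is TTTCGCGC read on the other strand. A match describes these letters and is not a shown binding site, and no binding was measured here.

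Among CDK inhibitors and G1 genes, 12 of 24 rose and 4 fell (median 0.18). E2f1, which drives replication genes, had 8.43, 8.52 and 8.48 at 48 h, against 7.59 and 7.56 at 6 h (0.90 ± 0.048, adjusted p = 4.32e-08). E2f8, a repressor of the E2F family that was dim at 6 h, changed by 1.24 ± 0.077. The INK4 inhibitors Cdkn2c and Cdkn2d rose by 0.80 ± 0.070 and 1.05 ± 0.071, and another probe set of Cdkn2c changed by -0.11. Cdkn1c, the imprinted inhibitor p57, fell to 9.59, 9.53 and 9.63 at 48 h, against 10.52 and 10.61 at 6 h (-0.98 ± 0.047, adjusted p = 1.56e-08), and Cdk4, a G1 kinase, changed by -0.24 ± 0.043.

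Beside the 90 min arrays without PE, division genes stood highest at 48 h. Group means of Ccnb1 were 8.69 at 90 min, 8.75 at 6 h and 10.45 at 48 h, those of Top2a 8.91 at 90 min, 8.82 at 6 h and 10.47 at 48 h and those of Mcm6 9.26 at 90 min, 9.03 at 6 h and 9.88 at 48 h. The 6 h means of these 3 genes lay within 0.25 of the 90 min means. These comparisons share arrays with the late against early one, so only levels are given.

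Markers of other cells were read beside the division genes, since pre-plated cultures keep some non-myocytes. Over all genes, 16.3% were raised and 18.4% lowered. Raised and lowered shares were 12.5% and 43.8% for fibroblast markers, and 35.7% and 28.6% for smooth muscle and pericyte markers. Both shares were 7.14% for endothelial markers, and 52.9% of leukocyte markers were lowered. Fibroblast markers had a summed level of 15.66 to 15.68 at 48 h, against 15.81 to 15.82 at 6 h, and 2 of 16 rose and 7 fell: Pdgfra had 9.29, 9.21 and 9.23 at 48 h, against 10.12 and 10.17 at 6 h (-0.91 ± 0.062), whereas Thy1 rose by 1.14 ± 0.093 (another probe set at 0.44). Smooth muscle and pericyte markers summed to 14.60 to 14.64 at 48 h, against 14.58 to 14.60 at 6 h, and 5 of 14 rose and 4 fell, or 2 raised without replicate 2 of the 6 h arrays. Endothelial markers summed to 10.60 to 10.68 at 48 h, against 10.63 to 10.70 at 6 h, with 9 of 14 dim in both groups and 1 member passing in each direction (0 rose without replicate 2 at 48 h or replicate 1 at 6 h). Of leukocyte markers, 0 of 17 rose and 9 fell, with a summed level of 10.72 to 10.80 at 48 h, against 11.12 to 11.18 at 6 h, and 8 of 17 dim in both groups. Epicardial and mesothelial markers went both ways (2 of 10 rose and 4 fell; summed 11.05 to 11.18 at 48 h, against 10.97 to 11.11 at 6 h), and of 9 Schwann cell and neuron markers 0 passed in either direction. A summed level mostly follows the brightest members of its list, so it is not set against the median change of the division genes. Whether division genes changed in myocytes or in the remaining cells was not tested.

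**Figure D2:**
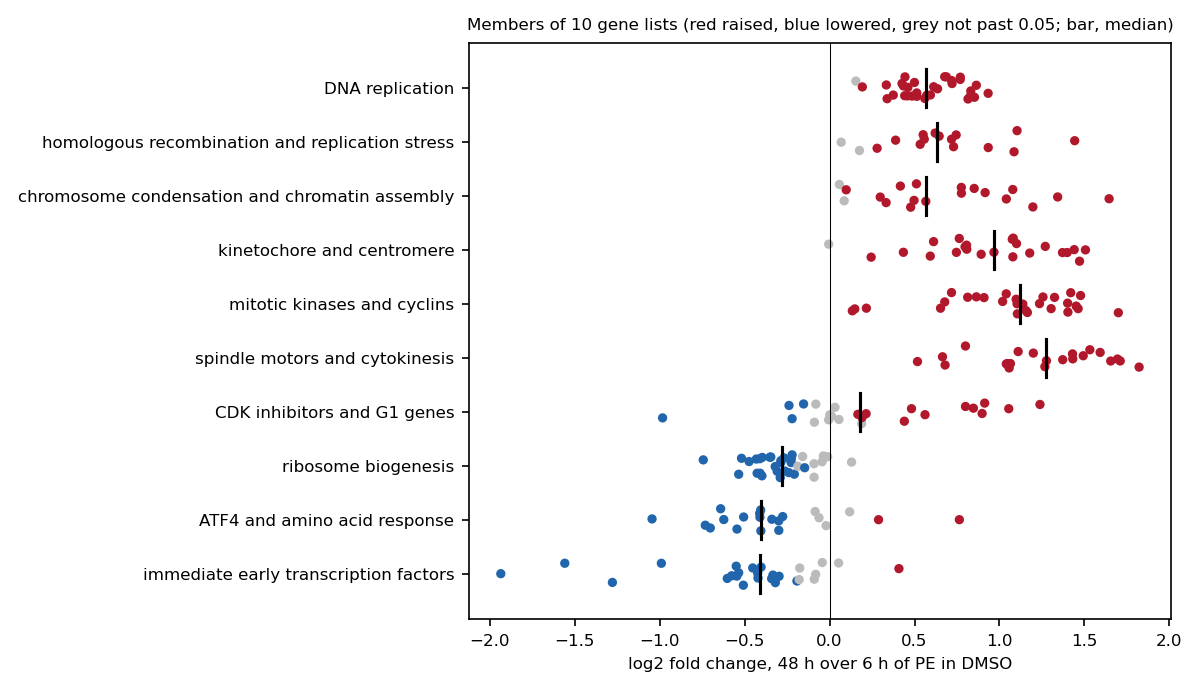
Log2 fold change, 48 h over 6 h of PE in DMSO, of every measured member of 10 gene lists; each point is a gene, red raised, blue lowered, grey not past an adjusted p of 0.05, and the bar is the list's median. The 6 division lists have medians from 0.57 to 1.27, and the lists of immediate early, ATF4 and ribosome biogenesis genes have medians of -0.41, -0.40 and -0.28.

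Of the most raised genes outside those lists, Scn3b, a beta subunit of voltage-gated sodium channels, had levels of 10.19, 10.18 and 10.14 at 48 h, against 8.34 and 8.38 at 6 h, a 3.51-fold rise (1.81 ± 0.055, adjusted p = 9.55e-10). Its groups were apart, as the choice of the most changed genes required. Sypl2, known in skeletal muscle as a membrane protein of the triad junction, had 9.33, 9.35 and 9.29 at 48 h, against 7.59 and 7.69 at 6 h (1.69 ± 0.067; another probe set at 0.81). Phf24 changed by 1.61 ± 0.081 and the metalloprotease gene Adamts19 by 1.57 ± 0.094. Ptprr, a phosphatase that inactivates MAP kinases, had 6.78, 6.67 and 6.75 at 48 h, against 5.19 and 5.14 at 6 h (1.57 ± 0.079). It was dim at 6 h and stood at 8.22 at 90 min without PE, so at 48 h it was still below that level. RGD1559545 and Fcer2, the low-affinity IgE receptor, were also dim at 6 h (1.74 ± 0.12 and 1.54 ± 0.13), and a second probe set of Fcer2 gave 0.04.

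Among what faded, the strongest falls included genes for secreted and surface proteins. Reg3b, a secreted lectin of the regenerating family, had levels of 10.88, 10.71 and 10.91 at 48 h, against 13.58 and 13.61 at 6 h. It was 6.77-fold lower at 48 h (-2.76 ± 0.090, adjusted p = 1.13e-09), the largest change of the comparison. Hamp, which encodes hepcidin, the hormone that limits iron export, had 6.90, 6.71 and 6.84 at 48 h, against 9.53 and 9.61 at 6 h and was 6.74-fold lower (-2.75 ± 0.074). Thbd, thrombomodulin, a surface anticoagulant, had 7.80, 7.57 and 7.68 at 48 h, against 9.81 and 9.88 at 6 h (-2.16 ± 0.075), with 2 further probe sets at -1.92 and -0.08. The most changed genes were chosen for arrays that do not overlap, so the separation of the arrays in these 3 genes adds no evidence.

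Several of the strongest falls followed a level at 6 h well above that of unstimulated cells. Fdx1, ferredoxin, which passes electrons to mitochondrial P450 enzymes, had 11.44, 11.24 and 11.37 at 48 h, against 13.41 and 13.34 at 6 h, a 4.07-fold fall (-2.02 ± 0.058), and group means of 11.08 at 90 min, 13.37 at 6 h and 11.35 at 48 h. Ch25h, which makes 25-hydroxycholesterol, had 6.19, 6.15 and 6.05 at 48 h, against 8.31 and 8.75 at 6 h (-2.40 ± 0.11), was dim at 48 h and had means of 5.40 at 90 min, 8.53 at 6 h and 6.13 at 48 h. Iqgap2 and the thyrotropin-releasing hormone gene Trh, both dim at 48 h, changed by -2.03 ± 0.094 and -1.95 ± 0.11. Bdkrb2, the bradykinin B2 receptor, had 6.95, 6.79 and 6.72 at 48 h, against 8.30 and 8.57 at 6 h (-1.61 ± 0.13; other probe sets at -1 and 0.03), and its means of 4.98 at 90 min, 8.44 at 6 h and 6.82 at 48 h left it above the 90 min level. Gfpt2, of hexosamine synthesis, and Septin6 changed by -1.54 ± 0.081 and -1.50 ± 0.067.

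Other falls started from levels that were already high without PE. Aldoc, the aldolase C gene of glycolysis, had 9.38, 9.36 and 9.38 at 48 h, against 11.46 and 11.41 at 6 h (-2.06 ± 0.057, adjusted p = 7.16e-10) and group means of 11.89 at 90 min, 11.43 at 6 h and 9.37 at 48 h. Mest, an imprinted gene of fetal growth, had 8.77, 8.59 and 8.74 at 48 h, against 10.36 and 10.58 at 6 h (-1.77 ± 0.071), with means of 10.76 at 90 min, 10.47 at 6 h and 8.70 at 48 h. Plagl1, an imprinted zinc finger gene, had 9.41, 9.31 and 9.32 at 48 h, against 10.95 and 11.17 at 6 h (-1.72 ± 0.073), with means of 10.74 at 90 min, 11.06 at 6 h and 9.34 at 48 h. Dhrs7c, a dehydrogenase of the sarcoplasmic reticulum, had 7.01, 7.04 and 7.20 at 48 h, against 8.78 and 8.91 at 6 h (-1.76 ± 0.13), with means of 9.46 at 90 min, 8.85 at 6 h and 7.08 at 48 h. Smoc2, a matricellular protein, and Doc2g changed by -1.69 ± 0.10 and -1.43 ± 0.079, and 2 dimmer probe sets of Smoc2 gave -0.27 and -0.26. For Aldoc, Mest and Dhrs7c the 6 h mean was already below the 90 min mean.

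**Figure D3:**
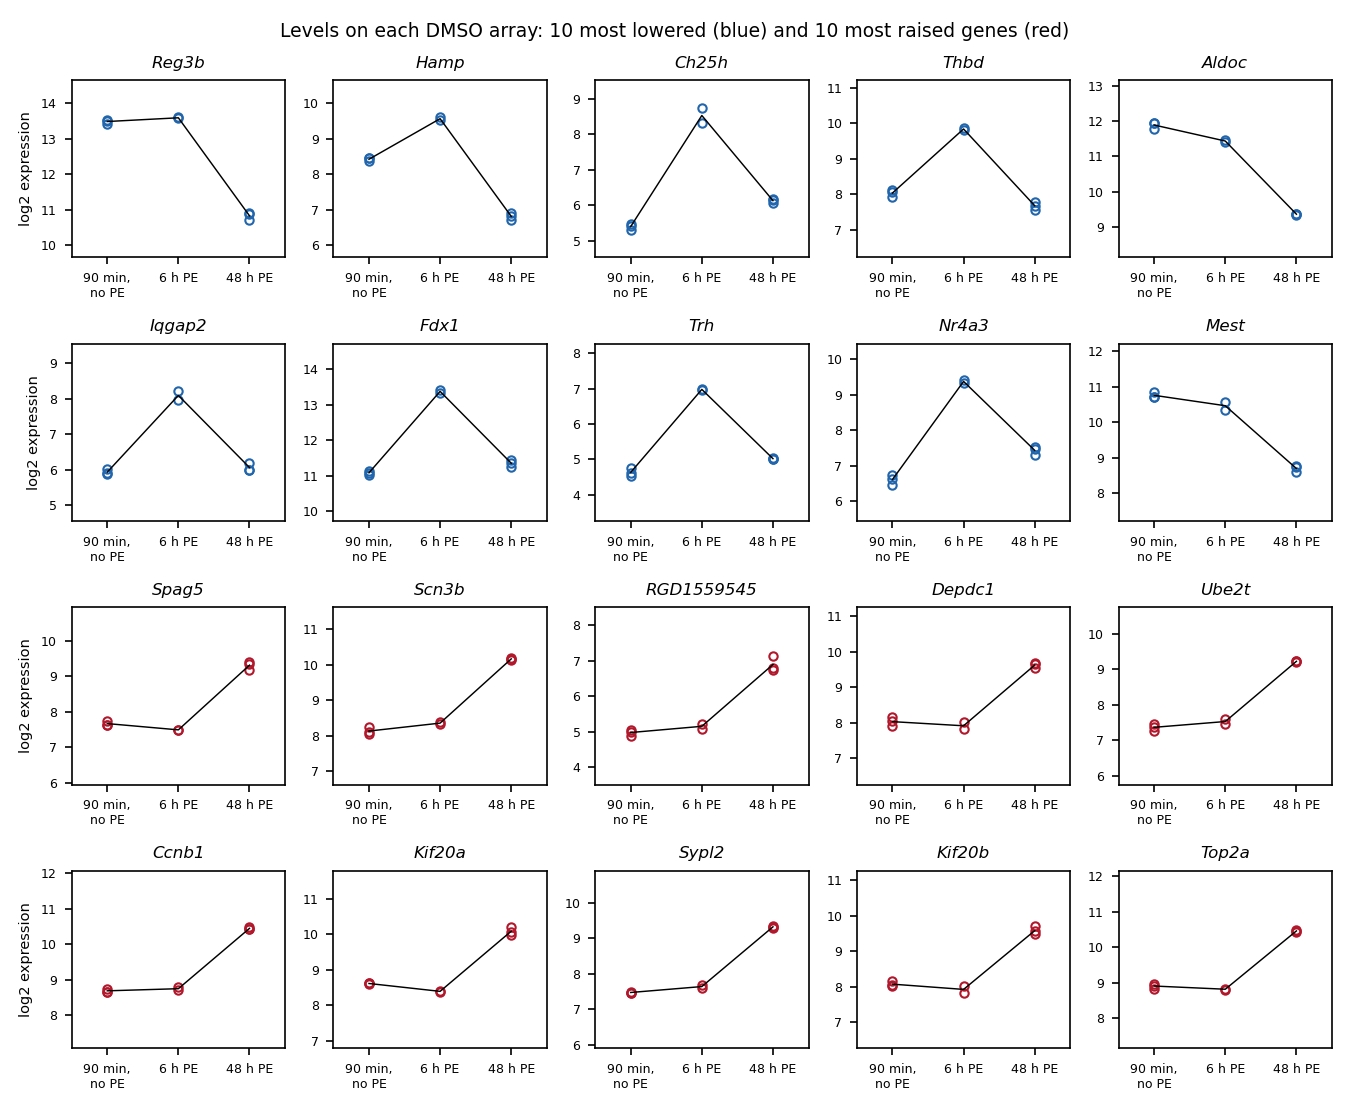
Log2 expression on each DMSO array at 90 min without PE, 6 h of PE and 48 h of PE for the 10 most lowered genes (blue) and the 10 most raised genes (red); circles are arrays, lines join group means and every panel spans the same range. Ch25h, Thbd, Fdx1 and Nr4a3 peak at 6 h, Reg3b, Aldoc and Mest are high at 90 min and 6 h, and the 6 h means of the raised genes lie within 0.25 of their 90 min means.

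Of immediate early transcription factors, which PE induces without new protein synthesis, 1 of 26 rose and 19 fell (73.1% lowered, against 18.4% of all genes; median -0.41). Nr4a3, an orphan nuclear receptor of the NR4A family, had 7.54, 7.47 and 7.29 at 48 h, against 9.34 and 9.41 at 6 h (-1.94 ± 0.089, adjusted p = 1.22e-08; other probe sets at -2.18 and -0.36), with means of 6.61 at 90 min, 9.37 at 6 h and 7.44 at 48 h. Its relative Nr4a1 had 7.71, 7.72 and 8.01 at 48 h, against 9.41 and 9.33 at 6 h (-1.56 ± 0.12). Of the AP-1 genes, Fos had 9.94, 9.92 and 9.86 at 48 h, against 11.20 and 11.17 at 6 h (-1.28 ± 0.070), and Fosl1 changed by -0.99 ± 0.074. Fos remained above its 90 min mean of 9.05. Srf, serum response factor, changed by -0.55 ± 0.043 (other probe sets at -0.28 and -0.18) and Myc by -0.74 ± 0.087, with means of Myc of 8.47 at 90 min, 9.10 at 6 h and 8.36 at 48 h. Hexim1, an inhibitor of the elongation kinase P-TEFb outside this list, changed by -0.23 ± 0.045. Jun, the AP-1 partner of Fos, was the 1 member that rose (10.56, 10.56 and 10.44 at 48 h, against 10.15 and 10.07 at 6 h; 0.41 ± 0.056).

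Inhibitors that close signalling loops fell in part: 6 of 26 rose and 10 fell (23.1% and 38.5%, against 16.3% and 18.4% of all genes). Rgs2, which speeds the shut-off of Gq, had 10.93, 10.69 and 10.81 at 48 h, against 12.59 and 12.57 at 6 h, a 3.4-fold fall (-1.77 ± 0.062, adjusted p = 1.95e-09). Dusp5, a nuclear ERK phosphatase, had 8.59, 8.76 and 8.75 at 48 h, against 10.05 and 10.18 at 6 h (-1.41 ± 0.061), and Dusp1, another MAP kinase phosphatase, changed by -0.61 ± 0.053. The salt-inducible kinase gene Sik1 and Nfkbiz, a nuclear regulator of NF-kappaB, changed by -0.87 ± 0.073 and -0.86 ± 0.049, with another probe set at -0.20 for Sik1 and at 0.04 for Nfkbiz. Rcan1, the calcineurin inhibitor induced by calcineurin itself, had 12.15, 12.07 and 12.05 at 48 h, against 12.52 and 12.41 at 6 h (-0.37 ± 0.057), whereas its relative Rcan2 rose (0.37 ± 0.039). Means of Rcan2 were 11.81 at 90 min, 11.41 at 6 h and 11.78 at 48 h. With Ptprr, MAP kinase phosphatases thus stood on both sides, Dusp5 and Dusp1 lower and Ptprr higher at 48 h.

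Among secreted signals, calls went in both directions. Of cytokines and chemokines, 1 of 28 rose and 6 fell, near the background for falls, led by Cxcl11 (-0.99 ± 0.10), Il1b (-0.96 ± 0.17) and Cx3cl1 (-0.79 ± 0.072). Il6 had 7.83, 7.55 and 7.55 at 48 h, against 8.08 and 8.14 at 6 h (-0.47 ± 0.15, adjusted p = 0.0294), a call that 4 of the 5 omissions of single arrays ended: without either 6 h array the adjusted p was 0.0826 and 0.131, and without replicate 2 or 3 at 48 h 0.0843 and 0.0853. Clcf1, a cytokine of the IL-6 family, was dim in both groups (-0.16 ± 0.10, adjusted p = 0.246) and did not pass. Of EGF, VEGF and FGF ligands, 5 of 27 rose and 6 fell (18.5% and 22.2%), near the background of 16.3% and 18.4%, and 3 fell without replicate 2 of the 6 h arrays. Areg, amphiregulin, had 7.45, 7.29 and 7.20 at 48 h, against 8.14 and 8.07 at 6 h (-0.79 ± 0.13) and Vegfa changed by -0.38 ± 0.057 (another probe set at -0.16). In the same list Hbegf, a growth factor linked to hypertrophy, had 8.50, 8.54 and 8.55 at 48 h, against 8.08 and 7.97 at 6 h (0.50 ± 0.049), and Fgf9 rose by 1.05 ± 0.087. Means of Fgf9 were 7.77 at 90 min, 6.85 at 6 h and 7.90 at 48 h, so at 48 h Fgf9 stood near its 90 min level. In the TGF-beta and BMP list, 5 of 26 rose and 8 fell (19.2% and 30.8%), with the raised share near the background. Bmp7 had 8.35, 8.36 and 8.37 at 48 h, against 9.30 and 9.34 at 6 h (-0.96 ± 0.062), and Bmp2 changed by -0.44 ± 0.053 (another probe set at -0.14). The BMP antagonist Grem1 rose by 1.17 ± 0.080 (10.44, 10.39 and 10.28 at 48 h, against 9.30 and 9.10 at 6 h). Of coagulation and prostanoid genes, 2 of 22 rose and 9 fell (9.09% and 40.9%, against 16.3% and 18.4% of all genes). Without replicate 2 of the 6 h arrays, 5 fell. Plat, tissue plasminogen activator, changed by -0.86 ± 0.038 and the secreted phospholipase gene Pla2g5 by 0.84 ± 0.068.

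Most genes of ribosome biogenesis were lower at 48 h. Of them, 0 of 34 rose and 25 fell (73.5% lowered, against 18.4% of all genes; median -0.28). Nolc1, a nucleolar phosphoprotein, had 9.51, 9.45 and 9.39 at 48 h, against 9.96 and 10.01 at 6 h (-0.54 ± 0.046; other probe sets at -0.45, -0.19 and 0.16), and Mybbp1a, Nob1 and Gnl3 changed by -0.47 ± 0.046, -0.43 ± 0.042 and -0.41 ± 0.043. Of polyamine and nucleotide synthesis genes, 3 of 17 rose and 5 fell (17.6% and 29.4%, against 16.3% and 18.4% of all genes). Their median was -0.03, and 3 fell without replicate 2 of the 6 h arrays. Srm, spermidine synthase, and Odc1, ornithine decarboxylase, changed by -0.50 ± 0.048 and -0.29 ± 0.043, whereas Azin1, which stabilizes ornithine decarboxylase, and Nme1, a nucleoside diphosphate kinase, rose by 0.42 ± 0.039 (other probe sets at 0.54 and -0.03) and 0.43 ± 0.041. Of the cytosolic ribosomal proteins themselves, 0 of 18 rose and 7 fell, by at most 0.13 among the 5 with the smallest adjusted p. That count was 4, 4 and 3 without each 48 h array in turn, 2 and 1 without each 6 h array, 4 with the replicate number as a block, 3 after centring the arrays on their medians, 0 when only the 5 arrays entered the fit and 11 with an intensity trend in eBayes.

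The lists of amino acid supply also held more lowered than raised genes. Lowered shares were 71.4% for ATF4 genes, 45.5% for transporters and 58.8% for synthetases, against 18.4% of all genes. Of ATF4 and amino acid response genes, 2 of 21 rose and 15 fell (71.4% lowered, median -0.40). Chac1, which degrades glutathione, had 9.02, 8.94 and 9.01 at 48 h, against 10.03 and 10.05 at 6 h (-1.05 ± 0.066, adjusted p = 1.66e-07). Trib3, a pseudokinase that feeds back on ATF4, had 8.78, 8.84 and 8.83 at 48 h, against 9.57 and 9.52 at 6 h (-0.73 ± 0.053), and Ddit4, an inhibitor of mTORC1, had 9.93, 9.89 and 9.93 at 48 h, against 10.72 and 10.53 at 6 h (-0.70 ± 0.058). The serine synthesis genes Phgdh and Psat1 changed by -0.55 ± 0.051 and -0.51 ± 0.043. Nupr1, a stress-induced chromatin factor of the same list, rose (0.76 ± 0.064). The late and early arrays of these 6 genes did not overlap, which held for nearly every gene that passed. Of amino acid transporters, 1 of 22 rose and 10 fell, with Slc1a1, a glutamate carrier, at -1.13 ± 0.091, Slc7a3, a cationic amino acid carrier, at -0.86 ± 0.063 and Slc3a2, the heavy chain of several carriers, at -0.64 ± 0.052. Of aminoacyl-tRNA synthetases, 0 of 17 rose and 10 fell, from Yars1 at -0.43 ± 0.044 to smaller falls.

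The CARE, the composite element that binds ATF4 with C/EBP partners, is shown in the 2 genes of that list with the smallest adjusted p that hold it. It was searched as TGATGNAA or its complement TTNCATCA, which stands in capitals.

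Chac1: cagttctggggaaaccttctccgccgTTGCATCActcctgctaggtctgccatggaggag
Trib3: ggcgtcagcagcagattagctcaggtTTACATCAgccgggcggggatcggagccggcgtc

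They lie at chr3:126795938-126795997 on the plus strand (Chac1) and chr3:161275521-161275580 on the minus strand (Trib3). The motif was in 4 of 20 promoters of the list (20%), against 2.21% of promoters of measured genes and 3.82% of the table. In the immediate early list, the cyclic AMP response element TGACGTCA, which binds CREB and reads the same on both strands, was in 3 of 16 promoters (18.8%), against 2.92% and 1.91%.

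Transcripts for protein folding in the endoplasmic reticulum changed by small amounts. Of the genes for its chaperones and folding enzymes, 0 of 19 rose and 14 fell (73.7% lowered, against 18.4% of all genes), with a median of -0.16. When only the 5 arrays entered the fit, 6 fell. Hspa5, the chaperone BiP, had 13.28, 13.31 and 13.30 at 48 h, against 13.53 and 13.55 at 6 h (-0.24 ± 0.041), and Xbp1, the transcription factor of the unfolded protein response, changed by -0.31 ± 0.040. Of ER-associated degradation genes, 1 of 15 rose and 3 fell, near the background. That count of falls was 5 with dim genes left out or with an intensity trend, and 1 without replicate 2 of the 6 h arrays. Of proteasome subunits, 6 of 25 rose and 0 fell (24.0% raised, against 16.3% of all genes), with Psmd1 at 0.29 ± 0.040 and Psmd14 at 0.25 ± 0.042.

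**Figure D4:**
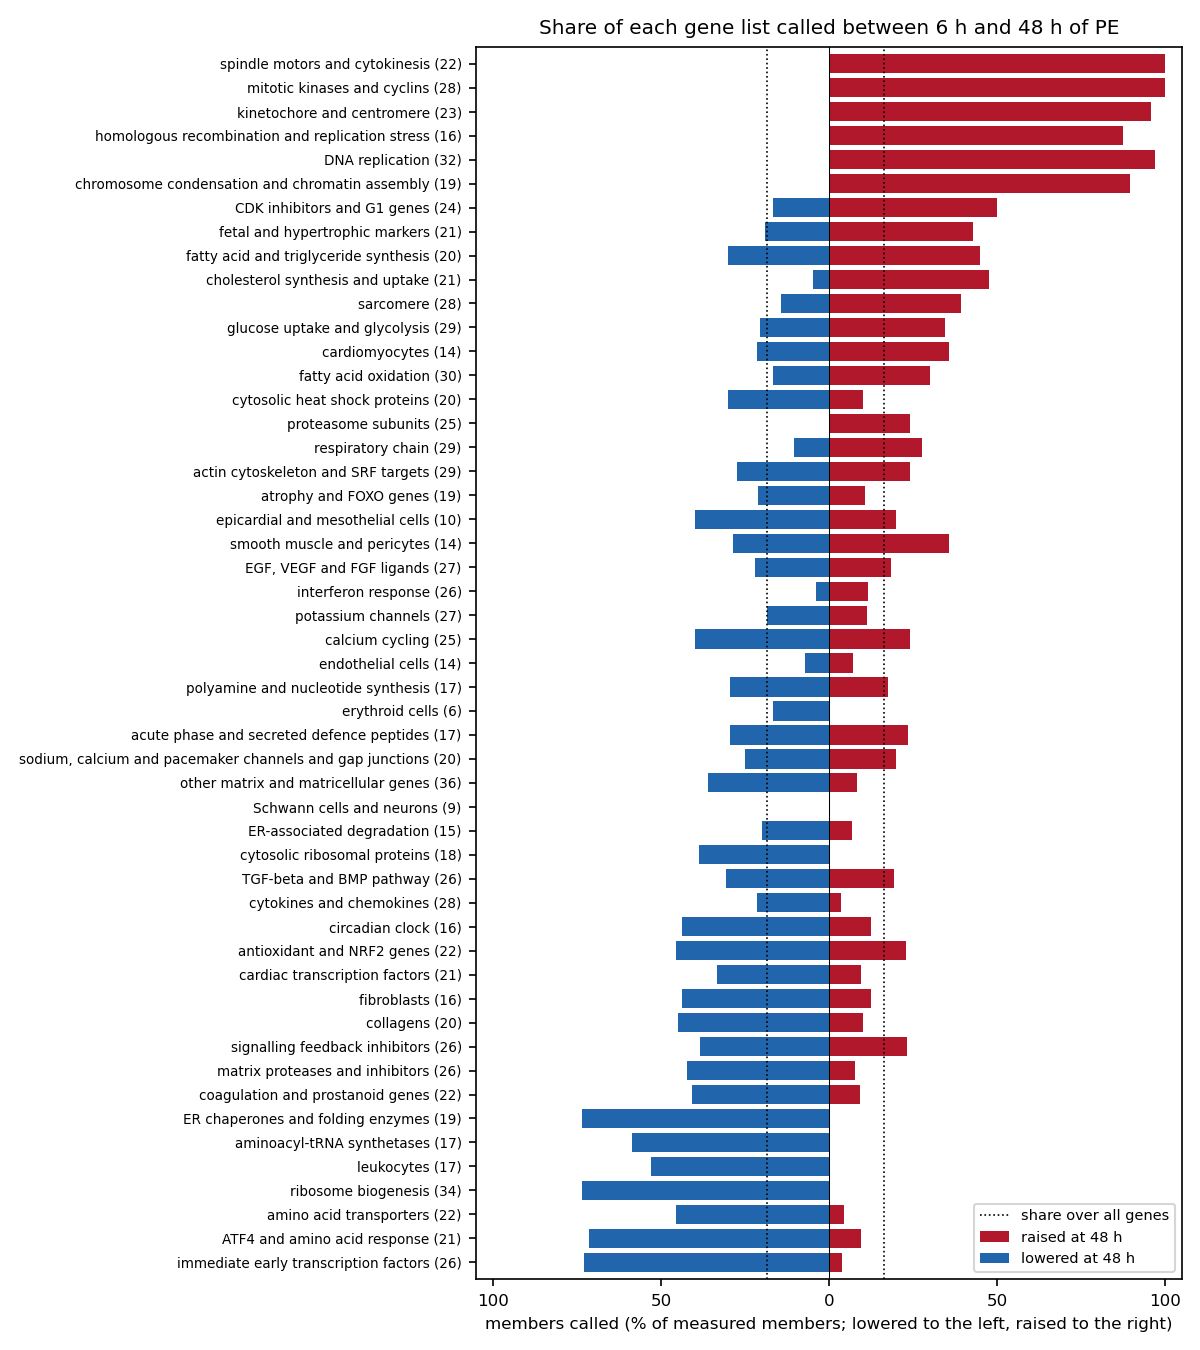
Share of measured members that passed an adjusted p of 0.05 between 6 h and 48 h of PE in DMSO, raised to the right and lowered to the left, for the 51 gene lists (number measured in brackets) in order of their median change; dotted lines give the share over all genes, 16.3% raised and 18.4% lowered. The 6 division lists reach 87.5% to 100% raised, and the lists of immediate early, ATF4, aminoacyl-tRNA synthetase, ribosome biogenesis and ER chaperone genes reach 58.8% to 73.7% lowered.

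Several hypertrophic marker genes were near the top of the scale at both times, whereas 2 of the 21 measured were dim in both groups. Of fetal and hypertrophic markers, 9 of 21 rose and 4 fell (42.9% and 19.0%, against 16.3% and 18.4% of all genes), with a median of 0.14. Nppa, atrial natriuretic factor, had 14.65, 14.63 and 14.62 at 48 h, against 14.22 and 14.16 at 6 h (0.44 ± 0.037, adjusted p = 1.83e-06), with means of 13.85 at 90 min, 14.19 at 6 h and 14.63 at 48 h. Nppb, its B-type relative, had 14.18, 14.14 and 14.21 at 48 h, against 14 and 13.89 at 6 h (0.23 ± 0.046). Acta1, skeletal alpha-actin, had 14.04, 14.06 and 14.04 at 48 h, against 13.80 and 13.84 at 6 h (0.23 ± 0.033). The late and early arrays of these 3 genes did not overlap, like those of nearly every gene that passed. The late values of Nppa lay next to the highest value of the deposited table, and changes that close to the top of the scale may be understated. Myh7, the slow myosin heavy chain, had 14.35, 14.40 and 14.39 at 48 h, against 13.92 and 13.97 at 6 h (0.43 ± 0.045), with a second probe set at 0.71. Myh6, the fast adult one, had 14.04, 14.05 and 14.01 at 48 h, against 14.16 and 14.19 at 6 h (-0.14 ± 0.036, adjusted p = 0.00936, and 0.0651 without replicate 2 of the 6 h arrays), with a second probe set at -0.97. Tnc, tenascin C, fell (-0.42 ± 0.073). Ccn2, a matricellular growth factor, had 14.16, 14.14 and 14.18 at 48 h, against 14.09 and 14.06 at 6 h (0.08 ± 0.043, adjusted p = 0.172) and did not pass.

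Contractile genes rose more often than all genes did: 11 of 28 rose and 4 fell (39.3% and 14.3%, against 16.3% and 18.4% of all genes). Lmod2, leiomodin, which sets thin filament length, had 12.25, 12.25 and 12.26 at 48 h, against 11.65 and 11.64 at 6 h (0.60 ± 0.036). The M-band genes Myom1 and Myom2 rose by 0.57 ± 0.056 and 0.71 ± 0.094, and the regulatory light chain gene Myl9 by 0.57 ± 0.050. Means of Myom2 were 11.48 at 90 min, 10.48 at 6 h and 11.19 at 48 h, so at 48 h Myom2 was still below its 90 min level. Myl7, the atrial light chain, had 9.88, 9.67 and 9.69 at 48 h, against 10.21 and 10.36 at 6 h (-0.54 ± 0.078), and Tnni1, the fetal troponin I, changed by -0.38 ± 0.052. Of actin cytoskeleton genes and SRF targets, 7 of 29 rose and 8 fell (24.1% and 27.6%), somewhat above the shares over all genes. Cnn1, calponin, had 11.29, 11.27 and 11.18 at 48 h, against 10.48 and 10.45 at 6 h (0.78 ± 0.065), while Flnc, filamin C, and Acta2 changed by -0.43 ± 0.050 and -0.48 ± 0.061.

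Of calcium cycling genes, 6 of 25 rose and 10 fell (40% lowered). Atp2a2, the calcium pump SERCA2 of the sarcoplasmic reticulum, had 13.77, 13.74 and 13.77 at 48 h, against 14.07 and 14.12 at 6 h (-0.33 ± 0.037, adjusted p = 2.04e-05), with further probe sets at -0.52, -0.82, -0.40 and 0.14. Hrc and S100a1, both regulators of that store, changed by -0.34 ± 0.063 and -0.30 ± 0.044. Casq1, a calsequestrin best known from skeletal muscle, rose (10.48, 10.41 and 10.39 at 48 h, against 9.64 and 9.78 at 6 h; 0.72 ± 0.081), as did Asph (1.29 ± 0.079). Of potassium channel genes, 3 of 27 rose and 5 fell, close to the background. Kcnd2 and Kcnip2, the pore and the partner of the transient outward current, had 6.80, 6.75 and 6.54 at 48 h, against 7.77 and 8.21 at 6 h (-1.29 ± 0.12), and 6.30, 6.09 and 6.30 at 48 h, against 7.37 and 7.47 at 6 h (-1.19 ± 0.20, with a second probe set at -0.03). Gja5, connexin 40 of conducting cells, had 9.13, 8.98 and 9.03 at 48 h, against 10.30 and 10.52 at 6 h (-1.36 ± 0.078; another probe set at -0.33). Gja1, the main ventricular connexin, changed by -0.33 ± 0.040 (other probe sets at -0.87 and 0.02) and the sodium channel subunit gene Scn4b by -0.57 ± 0.064, opposite to Scn3b. Of sodium, calcium and pacemaker channel and gap junction genes together, 4 of 20 rose and 5 fell. Of cardiac transcription factors, 2 of 21 rose and 7 fell (9.52% and 33.3%). Gata6 changed by -0.68 ± 0.057, Tbx5 by -0.40 ± 0.052 and Hand2 by -0.27 ± 0.043, with another probe set at -0.21 for Gata6 and at -0.13 for Hand2.

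The lists of energy metabolism held more raised than lowered genes. Their raised shares were above the 16.3% of all genes. Their lowered shares were near or below the 18.4% of all genes, although single genes fell clearly. In the fatty acid oxidation list, 9 of 30 rose and 5 fell. Pdk4, which holds back glucose oxidation, had 8.69, 8.48 and 8.47 at 48 h, against 7.27 and 7.55 at 6 h (1.14 ± 0.087; another probe set at 0.13), and Ucp2, an uncoupling protein, changed by 0.97 ± 0.058. Acsl1, which activates fatty acids, rose by 0.66 ± 0.058 (other probe sets at 0.71 and 0.05), from a mean of 10.28 at 6 h to 10.94 at 48 h, with 10.98 at 90 min. Hadh, a beta-oxidation dehydrogenase, had 10.16, 10.09 and 10.19 at 48 h, against 10.56 and 10.63 at 6 h (-0.45 ± 0.044, with another probe set at -0.09). Means of Pdk4 were 8.47 at 90 min, 7.41 at 6 h and 8.55 at 48 h, and those of Hadh 11.25 at 90 min, 10.60 at 6 h and 10.15 at 48 h, so that at 48 h Pdk4 stood near its 90 min level and Hadh further below it than at 6 h. In glucose uptake and glycolysis, 10 of 29 rose and 6 fell (6 rose without replicate 1 of the 6 h arrays): Eno3, the muscle enolase, had 11.20, 11.09 and 11.18 at 48 h, against 10.28 and 10.42 at 6 h (0.81 ± 0.053) and the lactate carrier gene Slc16a3 changed by 0.52 ± 0.066, opposite to Aldoc. In the respiratory chain, 8 of 29 rose and 3 fell, with Cox8b, a muscle subunit of cytochrome oxidase, at -0.58 ± 0.054 and Cox7a1 at 0.59 ± 0.071, and 4 rose when only the 5 arrays entered the fit.

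Matrix genes fell more often than they rose. Lowered shares were 45.0% for collagens, 36.1% for other matrix genes and 42.3% for proteases and inhibitors, against 18.4% of all genes. Of collagens, 2 of 20 rose and 9 fell (45.0% lowered), with Col1a1, of the main fibrillar collagen, at 12.31, 12.34 and 12.33 at 48 h, against 12.66 and 12.72 at 6 h (-0.36 ± 0.046) and Col18a1 at -0.72 ± 0.059 (another probe set at -0.31). Col8a1, a short-chain collagen, rose (11.02, 11.06 and 10.91 at 48 h, against 10.06 and 9.80 at 6 h; 1.07 ± 0.066). Of other matrix and matricellular genes, 3 of 36 rose and 13 fell (8 fell without replicate 2 of the 6 h arrays), and of matrix proteases and inhibitors 2 of 26 rose and 11 fell. Adamts9 changed by -0.68 ± 0.055 (another probe set at -0.07) and Mmp2, a gelatinase, by -0.33 ± 0.043, whereas Mmp3, stromelysin, and Esm1, an endothelial proteoglycan, rose from dim levels (1.36 ± 0.20 and 1.41 ± 0.16). The fibroblast and leukocyte values given beside the division genes were also lower at 48 h. The fibroblast list shares members with the collagen list, among them Col1a1 and Col1a2, so the falls of these 2 lists are partly the same values. The part of fibroblasts and leukocytes in the matrix falls was not tested.

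The time change was then set against that in JQ1, where both arms held 3 arrays and shared none with DMSO. The difference (DMSO minus JQ1) passed for 37 of the 40 most changed genes, against 38.8% of all genes; these 40 were chosen for a large change in DMSO. Ccnb1 changed by -0.43 ± 0.059 in JQ1, a difference of 2.13 ± 0.088 (adjusted p = 4.76e-09), and Scn3b by -0.78 ± 0.049 (difference 2.59 ± 0.074). Sypl2 was higher at 48 h in both arms, at 1.69 ± 0.067 in DMSO and 0.83 ± 0.060 in JQ1. Aldoc changed by -2.06 ± 0.057 in DMSO and -0.31 ± 0.051 in JQ1, a difference of -1.75 ± 0.076, while Nr4a3, Trh and Gfpt2 had larger falls in JQ1 (-2.67 ± 0.080, -3.29 ± 0.095 and -2.52 ± 0.072). For Iqgap2, Smoc2 and Bdkrb2 the difference was -0.08 ± 0.13, 0.03 ± 0.14 and 0.32 ± 0.17 and did not pass. The median time change of mitotic kinase and cyclin genes was 1.12 in DMSO and -0.23 in JQ1, that of spindle genes 1.27 and -0.25, and that of DNA replication genes 0.57 and 0.22. For ATF4 genes it was -0.40 in DMSO and -0.61 in JQ1. List medians were not tested against each other.

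**Figure D5:**
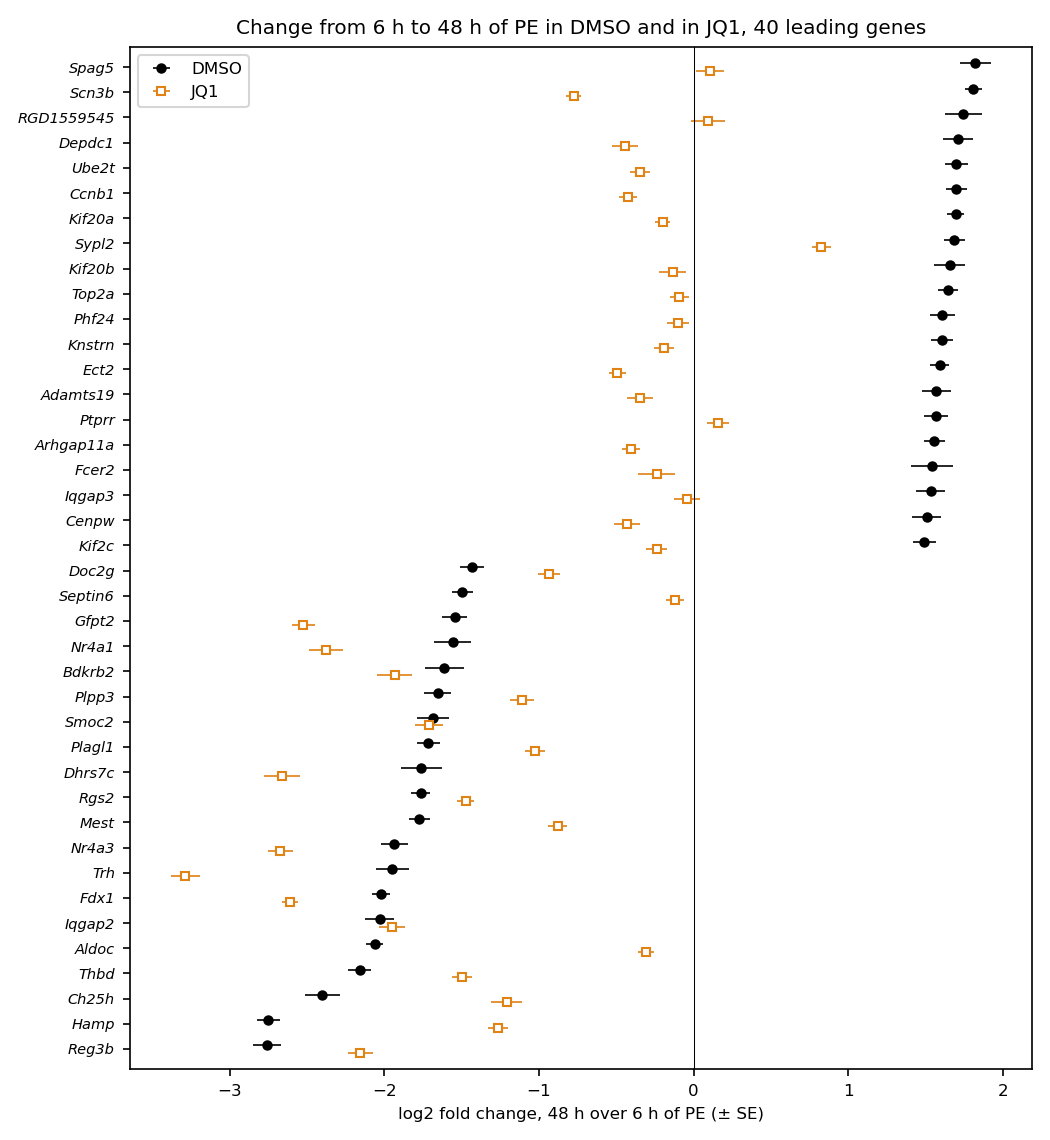
Log2 fold change ± SE, 48 h over 6 h of PE, in DMSO (filled circles) and in JQ1 (open squares) for the 20 most raised and 20 most lowered genes of DMSO. Of the raised genes all but Sypl2 lie below 0.2 in JQ1, and the lowered genes lie on both sides of their DMSO value.

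Over all 14 arrays, the genes most like the leading ones were listed by Pearson's correlation, as a description across 5 groups that share these large differences. Spag5 was closest to Cenpk (0.993), Scn3b to Prc1 (0.994) and then Ect2 (0.989), Depdc1 to Ect2 (0.994) and Ube2t to Kif2c (0.991). RGD1559545 was closest to the centromere gene Cenpm (0.984). Reg3b was closest to Smoc2 (0.987) and then to the leukocyte gene Tyrobp (0.982), Hamp to Sfr1 (0.984), Ch25h to Rgs2 (0.973), Thbd to Mdfi (0.992) and Aldoc to the mitophagy kinase gene Pink1 (0.992).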

How the data were processed

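Per the labels' protocols, biotin-labelled total RNA of the cultures was measured on Affymetrix rat arrays. The values deposited by the authors are log2 expression values per probe set, from 2.71 to 14.7, and their array distributions nearly coincide. The summarization, background correction and normalization behind them are not given in the sources used here, and limma appears in the submitters' processing notes with no stated use.

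Of 20223 probe sets, 18510 had 1 gene symbol in the platform annotation, 305 several, 1402 none, and 6 were controls. Symbols were updated to RefSeq (GRCr8) through the gene identifier (18461), an accession (1) or kept (48). The probe set with the highest mean over the 14 arrays stood for each of 13184 genes, of which 3797 had several. All 14 arrays entered 1 limma fit (lmFit and eBayes, limma 3.58.1, R 4.3.3) with a mean per group and 9 residual degrees of freedom, so the other groups help to estimate the spread. Contrasts were 48 h minus 6 h of PE in DMSO, and that change minus the same change in JQ1, each with two-sided p-values adjusted by the Benjamini-Hochberg method over all genes at a threshold of 0.05. The number of arrays limits the precision: the median standard error was 0.068. Samples were grouped by their titles. In simulated data with 50 of 13184 genes changed at each fold, the fit recovered 56% of changes of 1.25-fold, 86% of 1.5-fold, 98% of 2-fold and 100% of 4-fold for late against early PE, with 5.03% false among calls. This was 1 draw with independent normal noise, and far fewer genes were changed in it than the 34.6% called here. Its rates therefore need not hold for the real comparison.

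The 51 gene lists (43 of pathways, 8 of cell type markers; 1109 of 1273 entries measured, 6 to 36 a list), the comparison and the rules were chosen with earlier results of these data known. A list is described by its members past the threshold and its median, with no test of the list. Genes named are the 20 raised and 20 lowered with the largest change whose arrays do not overlap and whose brighter group is not dim. To these are added, per list, up to 5 members of lowest adjusted p in the direction with more calls and 2 in the other, the 3 genes most alike over the 14 arrays for each of 5 leading genes a direction, and a panel of Atp2a2, Acta1, Nppb, Nppa, Myh6, Myh7, Fos, Myc, Hexim1, Il6, Clcf1, Rcan1 and Ccn2 (platform symbol Ctgf). The 3 further panel genes are not reported here. Other probe sets of named genes that passed numbered 147: 77 passed in the same direction, 52 had the same direction without passing, 18 the opposite direction without passing, and 0 passed in the opposite direction. A marker list's summed level is the log2 of its members' summed linear values. Alternatives were the 5 arrays alone, median centring, repeated quantile normalization, the mean of all probe sets, a filter on dim genes, an intensity trend in eBayes, the replicate number as a block and the omission of each array.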

Additional observations from a re-analysis of the deposited data

Results flagged for a closer look

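For 37 of the 40 most changed genes, the change between 6 h and 48 h of PE differed between DMSO and JQ1 in the limma fit (38.8% of all genes did so). Values here are the log2 change in DMSO minus that in JQ1, with 3 and 2 arrays in DMSO and 3 and 3 in JQ1. The genes were chosen for a large change in DMSO. All 20 raised genes are among them, with differences above 2 for Scn3b (2.59), Depdc1 (2.16), Ccnb1 (2.13), Ect2 (2.09) and Ube2t (2.05). The other raised genes were Arhgap11a (1.96), Cenpw (1.94), Adamts19 (1.91), Kif20a (1.9), Knstrn (1.8), Kif20b (1.79), Fcer2 (1.78), Top2a (1.74), Kif2c (1.73), Spag5 (1.72), Phf24 (1.71), RGD1559545 (1.65), Iqgap3 (1.57), Ptprr (1.41) and Sypl2 (0.86). In JQ1 the change of Depdc1 was -0.44 ± 0.086 and that of Ect2 -0.49 ± 0.055. RGD1559545, Adamts19, Ptprr, Fcer2 and Iqgap3 were dim at both times in JQ1, so the size of their JQ1 changes is uncertain.

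Among the lowered genes, a fall that was larger in DMSO than in JQ1 gives a negative difference, as in Aldoc (-1.75), Hamp (-1.49), Septin6 (-1.38), Ch25h (-1.19), Mest (-0.89), Plagl1 (-0.69), Thbd (-0.66), Reg3b (-0.6), Plpp3 (-0.54), Doc2g (-0.5) and Rgs2 (-0.29). A fall that was larger in JQ1 gives a positive one, as in Trh (1.34), Gfpt2 (0.98), Dhrs7c (0.9), Nr4a1 (0.82), Nr4a3 (0.74) and Fdx1 (0.59). Hamp changed by -2.75 ± 0.074 in DMSO and -1.27 ± 0.066 in JQ1, and Dhrs7c by -1.76 ± 0.13 and -2.66 ± 0.12. At 48 h in JQ1 the means of Thbd (5.29), Ch25h (5.24), Trh (5.88) and Dhrs7c (5.52) were dim, so the size of these JQ1 falls is uncertain. Thbd and Ch25h also started lower in JQ1, with 6 h means of 6.79 and 6.45, against 9.84 and 8.53 in DMSO. The medians of the JQ1 arrays lay from 7.279 to 7.312 at 48 h, against 7.304 to 7.319 at 6 h, and those of the DMSO arrays from 7.365 to 7.404, against 7.365 and 7.43. After centring each array on its median, 37 of the 40 passed as well.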

How the results depend on the processing

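The counts of raised and lowered genes kept within 1.5 times of 2144 and 2421 under every alternative run. Leaving out 1 array at a time gave 1622 to 1997 raised and 1730 to 2234 lowered genes, 111 to 131 raised and 56 to 75 lowered at least 2-fold, and 37 of the 40 leading genes with a different change in JQ1 each time. With only the 5 arrays in the fit, 1716 genes were raised and 1767 lowered (123 and 59 at least 2-fold), and the difference from JQ1 cannot be fitted. Of the 4565 genes called, 71.4% (without replicate 2 at 6 h) to 96.9% (repeated quantile normalization) kept their call, and all 4185 that the dim filter left in. Centring moved the median of all genes by 0.005 and quantile normalization by 0.002. List counts that moved by over 1.5 times were, with only the 5 arrays, 6 lowered ER chaperones (14 before), 0 lowered ribosomal proteins (7), 3 lowered acute phase genes (5), 2 lowered atrophy genes (4) and 4 raised respiratory chain (8), 3 smooth muscle (5), 1 interferon (3) and 0 endothelial genes (1). With dim genes left out they were 8 raised recombination genes (14), 0 raised endothelial markers (1), 5 lowered leukocyte (9) and 2 lowered epicardial markers (4), and 5 lowered ER-associated degradation genes (3). With an intensity trend they were 11 lowered ribosomal proteins, 5 lowered ER-associated degradation genes and 0 raised endothelial markers. With the block they were 4 lowered ribosomal proteins and 1 raised interferon gene, and with centring 3 lowered ribosomal proteins. Lists whose counts moved without 1 array carry the value beside them. Without 1 array, members raised ranged over 26 to 27 for mitotic kinases, 22 to 22 for spindle genes, 21 to 22 for the kinetochore, 30 to 31 for DNA replication, 14 to 17 for condensation, 12 to 14 for recombination and 11 to 12 for G1 genes. Members lowered ranged over 16 to 19 for immediate early genes, 14 to 15 for ATF4 genes, 23 to 26 for ribosome biogenesis, 8 to 10 for aminoacyl-tRNA synthetases, 10 to 13 for ER chaperones and 6 to 8 for leukocytes. Tnnc1 was at -0.03 (adjusted p = 0.548) after repeated quantile normalization, against a called rise of 0.10. Of 326 named genes, 3 to 30 lost their call under an alternative other than the dim filter, most without replicate 2 at 6 h.

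With replicate numbers as a block, 2006 genes were raised and 2209 lowered (123 and 63 at least 2-fold), 4128 of the 4565 called genes (90.4%) kept their call, and 38 of the 40 leading genes differed from JQ1. Same-numbered arrays at 48 h and 6 h deviated from their group means with correlations of -0.267 and -0.233. The 2 arrays at 6 h deviate from their mean by mirrored amounts, so these 2 values are not independent. Over all 26 same-numbered pairs correlations ran from -0.267 to 0.18, against -0.207 to 0.267 for pairs with different numbers. These values show no sign of pairing by number and cannot exclude it. The block ended the call of 8 named genes, Il6 among them (adjusted p = 0.0661). Dim genes and a median standard error of 0.068 limit what can be seen of small changes.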

Other observations

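Genes of sterol synthesis mostly rose or did not pass. Of genes of cholesterol synthesis and uptake, 10 of 21 rose and 1 fell (47.6% raised, against 16.3% of all genes). Fdps, which makes farnesyl diphosphate, had 13.44, 13.43 and 13.43 at 48 h, against 13 and 13.03 at 6 h (0.41 ± 0.047), and Sc5d and Ebp, of the last steps of the pathway, changed by 0.46 ± 0.061 and 0.38 ± 0.044. The 1 gene that fell was Ch25h, whose product represses this pathway. Of fatty acid and triglyceride synthesis genes, 9 of 20 rose and 6 fell. Of clock genes, 2 of 16 rose and 7 fell (43.8% lowered, against 18.4% of all genes): Bhlhe41, a repressor of the clock, had 10.13, 10.04 and 10.05 at 48 h, against 11.05 and 11.24 at 6 h (-1.07 ± 0.064), and the core activator gene Bmal1 had 7.50, 7.49 and 7.38 at 48 h, against 8.17 and 8.25 at 6 h (-0.75 ± 0.054), with means of 7.14 at 90 min, 8.21 at 6 h and 7.46 at 48 h. The time of day of each harvest is not stated in the labels.

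Of antioxidant genes and NRF2 targets, 5 of 22 rose and 10 fell (22.7% and 45.5%, against 16.3% and 18.4% of all genes). When replicate 2 at 6 h was left out, 6 fell. Gsta4, a glutathione transferase, had 10.26, 10.20 and 10.31 at 48 h, against 11.04 and 11.03 at 6 h (-0.78 ± 0.043), and Txnrd1, thioredoxin reductase, and the metallothionein gene Mt2A changed by -0.70 ± 0.062 and -0.90 ± 0.076. Catalase, Cat, had 11.32, 11.31 and 11.23 at 48 h, against 10.84 and 10.90 at 6 h (0.42 ± 0.053), with means of 11.62 at 90 min, 10.87 at 6 h and 11.29 at 48 h. Of cytosolic heat shock proteins, 2 of 20 rose and 6 fell. Hspb3, a small heat shock protein of muscle, had 12.09, 12.11 and 12.12 at 48 h, against 11.15 and 11.20 at 6 h (0.93 ± 0.038, adjusted p = 5.61e-09), whereas its relatives Hspb7 and Hspb8 changed by -0.44 ± 0.054 and -0.30 ± 0.041. In the atrophy and FOXO list, 2 of 19 rose and 4 fell (10.5% and 21.1%, against 16.3% and 18.4% of all genes). Without replicate 2 at 6 h, 2 fell. Irs2, an adaptor of the insulin receptor, led the falls, at 9.71, 9.67 and 9.60 at 48 h, against 10.77 and 10.83 at 6 h (-1.14 ± 0.053). Of interferon response genes, 3 of 26 rose and 1 fell, below the background, and 0 to 1 rose without replicate 1 or 2 at 48 h or replicate 1 at 6 h. Of acute phase and secreted defence genes, 4 of 17 rose and 5 fell (3 fell without replicate 2 at 48 h or at 6 h), with Reg3g, a relative of Reg3b that was dim in both groups, at -1.07 ± 0.11. Of 6 erythroid markers 1 fell, Hbb, at -0.70 ± 0.15.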
